A study of Homo sapiens with 2 samples.

Results

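The BCL2 family decides at the mitochondrial outer membrane whether a cell survives, and 10 of its genes were followed here: the pro-survival BCL2, BCL2L1 and MCL1, the pore-forming BAX and BAK1, and the BH3-only BID, BIK, PMAIP1, BBC3 and BCL2L11. They were chosen by name, and every array probe that carried one of these names and was not a control was taken, which gave 23 of 41000 probes and 10 of 30484 gene names. Expression was measured in PC3, a cell line derived from a bone metastasis of prostate cancer, on 2 dual-colour Agilent whole human genome arrays of the same slide. One array compared SUB1 siRNA 1 and the other SUB1 siRNA 2 (both Cy5) with non-targeting siRNA (Non-T siRNA, Cy3). All cells, the controls included, had received the Lipofectamine RNAImax reagent and a duplex, had been transfected a second time a day later, and were harvested 72 h after the first transfection. SUB1 encodes a transcriptional coactivator that binds single-stranded DNA.

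Pro-survival proteins hold the executioners BAX and BAK1 in check, and BH3-only proteins, which are made or activated under stress, neutralize the pro-survival proteins or activate the executioners directly. Once BAX or BAK1 forms a pore, cytochrome c leaves the mitochondrion, the apoptosome assembles and caspases are switched on. Much of the control of the BH3-only genes is transcriptional, through FOXO factors, E2F1 and the endoplasmic reticulum stress factors ATF4 and DDIT3 (CHOP) among others.

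Dyes were not swapped, so at any probe dye bias and knockdown cannot be told apart, and with 1 array for each duplex there is no replicate of a single-siRNA value. Whether both arrays carried the same Non-T RNA is not given in the sources used here. SUB1 was lower in both comparisons, its 4 probes having log2 ratios (knockdown over control, as everywhere below) between -3.75 and -1.81 in the siRNA 1 comparison and between -3.50 and -1.57 in the siRNA 2 comparison. Among probes spotted 10 times, the median SD of the log2 ratio over the spots was 0.078 and 0.074, which is the error within an array only. All 7 epithelial and PC3 markers (among them KRT8, KRT18 and EPCAM) were well above background in every channel. Of KLK3 and KLK2, which PC3 cells are known to lack or hold at low levels, 1 of 3 probes each was well above background in every channel. The bright KLK3 probe (listed for AF335478) had signals of 19873 to 24888, whereas that for NM_001648 was not well above background in any channel, and what the bright probe detects was not tested. The same held for 3 of 4 leukocyte markers, with a summed probe signal of 1978 to 2194 over the 4 channels that came mostly from CD79A, and for 3 of 4 fibroblast and endothelial markers (575 to 674), while PTPRC and COL3A1 were not above background in any channel. Their part in the results was not tested.

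No member reached a 2-fold change on either array after loess. A probe was kept where both arrays had it well above background in Cy3, Cy5 or both, which held for 20 of the 23 member probes, at least 1 for each gene. With SUB1 siRNA 1, 0 of the 20 were 2-fold changed, beside 0.748% of all 25673 kept probes (0.191% higher and 0.557% lower). With SUB1 siRNA 2 it was 0 of 20 beside 1.45% (0.526% higher and 0.923% lower). This count depended on the scaling, since the 3′-most BBC3 and BCL2L11 probes passed 2-fold with siRNA 2 under median centring in place of loess (log2 ratios of 1.16 and 1.14) and with the processed signals of the scanner software (1.16 and 1.04). Calls over all probes rose as well, from 135 of 25673 higher with siRNA 2 after loess to 310 under median centring and 1307 with the processed signals. The log2 ratios of the members ran from -0.69 (PMAIP1) to 0.56 (BCL2L11) with siRNA 1 and from -0.42 (BID) to 0.98 (BBC3) with siRNA 2. Their medians were 0.022 and 0.16, against 0.014 and 0.015 over all probes. The mean ratio of both siRNAs was tested against 0 with limma, and with Benjamini-Hochberg adjustment over all 25673 probes, 0 of 20 member probes passed an adjusted p of 0.05, where 0.0117% of all probes passed (3 probes, all lower). At an unadjusted p under 0.05 the same test listed 7 of 20 member probes, a share of 35%, beside 21.2% of all probes: 5 higher, beside 10.7%, and 2 lower, beside 10.5%. These p-values rest on the spread between the duplexes, which limma draws at each probe toward a value shared by all probes. They leave out the spread of the control cells. In RNA from a whole culture, fewer cells with a transcript and less of it per cell cannot be told apart.

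**Figure D1:**
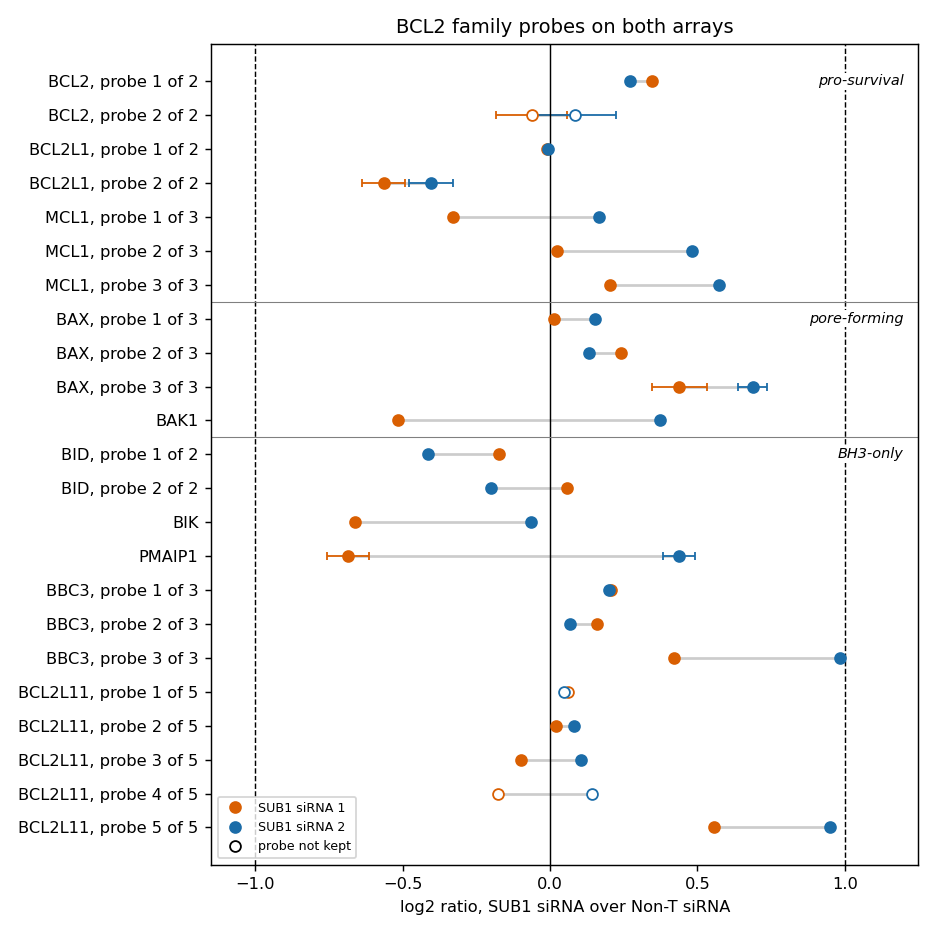
Log2 ratio, SUB1 siRNA over Non-T (x axis), for each of the 23 member probes, ordered by class and from the 5′ to the 3′ end of each gene, with siRNA 1 in orange and siRNA 2 in blue joined by a grey line. Bars are the SD among the spots of probes spotted 10 times, open circles are the 3 probes that were not kept, and dashed lines mark a 2-fold change, which none of the probes reached.

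Among the pro-survival genes, BCL2L1, which encodes BCL-XL, had lower signals with both siRNAs and MCL1 had higher ones at its 3′-most probe. The BCL2L1 probe that the array lists for both of its transcripts (NM_138578 and NM_001191, chr20:29716985-29717044 on hg18, minus strand) had a signal of 246 in Non-T siRNA-treated cells and 166 with siRNA 1, and of 238 in Non-T siRNA-treated cells and 180.3 with siRNA 2. The signal was thus below the control on both arrays, with a log2 ratio of -0.57 for the first duplex (SD 0.073, 8 spots) and -0.40 for the second (SD 0.075, 7 spots). The highest of those spots were at -0.46 and -0.25, so no spot reached the control level. The mean ratio did not pass limma's test (-0.48, adjusted p = 0.126). A second BCL2L1 probe, which the array lists for the NM_001191 transcript and not for NM_138578, had signals of 89.5 to 95.7 and ratios of -0.012 and -0.0073. It was close to background, with Cy3 not well above background on the siRNA 1 array, so that the comparison there gave no bound above 1-fold.

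MCL1, a short-lived protein that sequesters BAK1 and BH3-only proteins, has 3 probes. The 3′-most (NM_021960, chr1:148813852-148813911 on hg18, minus strand) had 6215 in Non-T siRNA-treated cells and 7162 with siRNA 1, and 5837 and 8676 in the siRNA 2 comparison. Its log2 ratios were 0.20 and 0.57, with an adjusted p of 0.197 by limma, and 0.52 and 0.90 under median centring (adjusted p = 0.0731). The neighbouring probe, 394 bases upstream on the genome, had 0.024 and 0.48, the former being -0.041 in the authors' table. The third probe is the single one of these that the array lists for NM_021960, the long form of the transcript, without the short form NM_182763, and it stood apart. Its signal was 159.9 in Non-T siRNA-treated cells and 127 with siRNA 1, a log2 ratio of -0.33. With siRNA 2 it was 159 and 179, a log2 ratio of 0.17. All 3 MCL1 probes were higher with siRNA 2 than with siRNA 1, by 0.37 to 0.50.

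BCL2, the founding member, has 2 probes that lie 194388 bases apart on the genome. The probe taken from the beta mRNA (M13995) had 1489 and 1891 with siRNA 1 and 1552 and 1872 with siRNA 2, for Non-T and SUB1 siRNA in that order. These are log2 ratios of 0.34 and 0.27, nearly the same with both duplexes, and limma's adjusted p was 0.185. The probe in the 3′ end of the alpha transcript (NM_000633), spotted 10 times, was not well above background in either comparison, with signals of 64.9 to 68.8, so the level of that transcript has only a bound here. The beta probe is thus the only kept BCL2 probe, and what it detects was not tested.

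**Figure D2:**
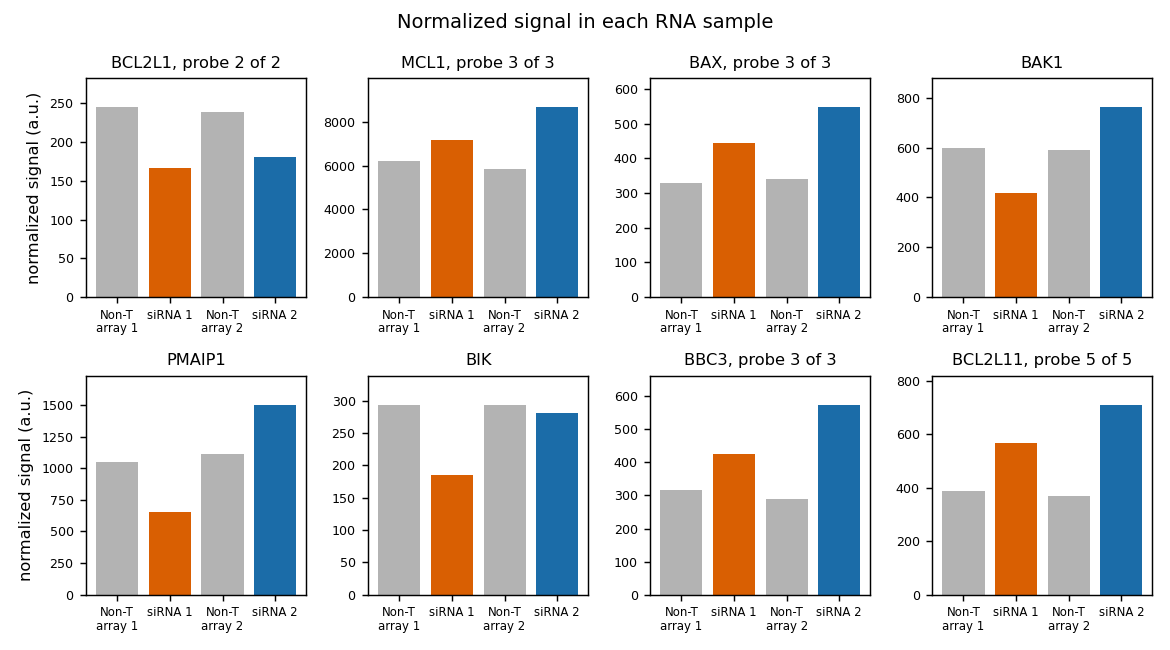
Signal (y axis, arbitrary units, from 0) of 8 member probes in the 4 RNA samples, Non-T siRNA (Cy3, grey) and SUB1 siRNA (Cy5, siRNA 1 orange, siRNA 2 blue) of each array, after background correction, loess within arrays and scaling of the average signal between arrays. Among the 20 kept member probes the control signals of the arrays differ by at most 0.13 on the log2 scale, and the SUB1 siRNA bars lie on opposite sides of the control bars for PMAIP1 and BAK1.

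The pore-forming genes differed from each other. BAX, which moves from the cytosol to the mitochondrion when activated, had its highest ratios at its 3′-most probe (NM_138764, chr19:54156716-54156775 on hg18, plus strand). The signal there was 328 in Non-T siRNA-treated cells and 444 with siRNA 1, and 340.3 and 548 in the siRNA 2 comparison. The log2 ratios were 0.44 (10 spots, SD 0.094, lowest spot 0.35) and 0.69 (10 spots, SD 0.049, lowest spot 0.63), so that every spot was above the control on both arrays, and limma's adjusted p for the mean of 0.56 was 0.121. The other BAX probes, 6175 and 5946 bases upstream on the genome (introns included), had 0.012 and 0.15, and 0.24 and 0.13. Under median centring these were 0.26 and 0.41, and 0.34 and 0.24, beside 0.61 and 0.87 at the 3′-most probe, and with the processed signals of the scanner software the lowest was -0.0016.

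BAK1, which resides in the outer membrane, has 1 probe (NM_001188, chr6:33648563-33648622 on hg18, minus strand). The control signals were 600.0 and 589.7, while that with siRNA 1 was 419 and that with siRNA 2 was 763. BAK1 was thus below the control with the first duplex (log2 ratio -0.52) and above it with the second (0.37), a difference of 0.89 between them that was larger than for 98.3% of all probes.

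Among the BH3-only genes, BBC3 (PUMA) and BCL2L11 (BIM), both of which bind every pro-survival protein and can activate BAX and BAK1, had the highest mean ratios of both siRNAs among the members, each at its 3′-most probe. The 3′-most BCL2L11 probe (NM_138621, chr2:111642363-111642422 on hg18, plus strand) had 387 in Non-T siRNA-treated cells and 569.5 with siRNA 1, and 368 and 712 in the siRNA 2 comparison. Both SUB1 siRNA signals exceeded both control signals, by 1.47-fold with siRNA 1 and 1.93-fold with siRNA 2 against the control of the same array. This probe had the lowest adjusted p of all members by limma, 0.111, with a mean log2 ratio of 0.75 (SE 0.131). The other 4 BCL2L11 probes lie 2327 to 14535 bases upstream on the genome. Of these, 2 were not kept. The one from the alpha1 mRNA (AB071195) was well above background in Cy5 on the siRNA 1 array and in neither channel on the siRNA 2 array. The remaining pair overlap each other by position and had signals of 75.3 to 89.3 and ratios from -0.099 to 0.11, and their Cy3 channel was not well above background. Their signals set a bound of at least 1.01-fold with siRNA 1 at one and of at least 1.05-fold with siRNA 2 at the other. The remaining comparison of each probe gave no bound above 1-fold. With the processed signals of the scanner software, single ratios of this pair moved to 0.57 and 0.66.

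The 3′-most BBC3 probe (NM_014417, chr19:52416014-52416073 on hg18, minus strand) had 318 in Non-T siRNA-treated cells and 425 with siRNA 1, and 291 and 575 in the siRNA 2 comparison. Its ratio was 1.34-fold with siRNA 1 and 1.98-fold with siRNA 2, log2 ratios of 0.42 and 0.98, and limma's adjusted p was 0.134. A BBC3 probe 913 bases upstream on the genome, with signals of 119 to 134, had 0.16 and 0.069. One 7260 bases upstream on the genome, with signals of 66621 to 81452, had 0.21 and 0.20, and what it detects was not tested. The latter probe had 0.70 and 0.72 where loess was replaced by median centring, and 0.035 and 0.044 in the authors' table.

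PMAIP1 (NOXA), a BH3-only protein that binds MCL1 and targets it for degradation, had ratios of opposite sign with the siRNAs. Its probe (NM_021127, chr18:55721258-55721317 on hg18, plus strand) had 1046 in Non-T siRNA-treated cells and 650.5 with siRNA 1, against 1111 and 1504 in the siRNA 2 comparison. The log2 ratio was -0.69 with siRNA 1 (10 spots from -0.79 to -0.57) and 0.44 with siRNA 2 (9 spots from 0.37 to 0.56), and the ranges of the spots did not overlap. The difference of 1.12 was larger than for 99.3% of all probes, while the control signals of PMAIP1 differed by 0.086 between the arrays. The mean was -0.12 with an SE of 0.277, and limma's adjusted p was 0.827, which tests the mean and not the difference.

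BIK, an endoplasmic reticulum-bound BH3-only protein, had control signals of 294 and 293. With siRNA 1 its signal was 186 and with siRNA 2 280.1, which are log2 ratios of -0.66 and -0.065, and limma's adjusted p was 0.292. The latter ratio was 0.082 under median centring. BID, which links death receptors to mitochondria once caspase-8 has cleaved it, has 2 probes 144 bases apart on the genome. The brighter had 3360 and 2979 with siRNA 1 and 3448 and 2585 with siRNA 2, log2 ratios of -0.17, which was 0.090 under median centring, and -0.42 (adjusted p = 0.229). The dimmer had 0.057 and -0.20, so both BID probes were on the low side with siRNA 2.

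**Figure D3:**
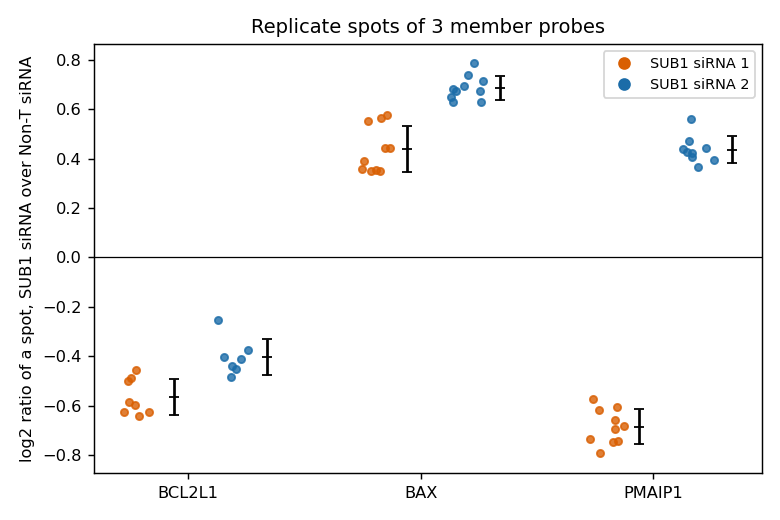
Log2 ratio over the control (y axis) of each single spot of the BCL2L1, BAX and PMAIP1 probes that were spotted 10 times, with SUB1 siRNA 1 in orange and SUB1 siRNA 2 in blue, and mean and SD in black. The PMAIP1 spots lie between -0.79 and -0.57 with siRNA 1 and between 0.37 and 0.56 with siRNA 2, whereas those of BCL2L1 lie below 0 and those of BAX above 0 on both arrays.

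Viewed at a threshold of 1.5-fold, which was chosen after the values were seen, siRNA 1 had 2 of 20 member probes lower (PMAIP1 and BIK), beside 2.92% of all probes, and 0 higher, beside 2.21% (5.13% either way). With siRNA 2 it was 3 higher (the 3′-most probes of BAX, BBC3 and BCL2L11), beside 3.19%, and 0 lower, beside 3.95% (7.14% either way). Over all members, 14 of 20 member probes were higher with siRNA 2 than with siRNA 1, where 50% of all probes were. By class of the gene, the median difference between siRNA 2 and siRNA 1 was 0.26 over 6 probes of pro-survival genes. It was 0.19 over 4 probes of pore-forming genes and 0.13 over 10 probes of BH3-only genes. The classes take no account of the transcript form for which a probe is listed. Ratios of opposite sign, each further from 0 than 2 median spot SDs, were found for 3 of 20 probes (PMAIP1, BAK1 and the long-form MCL1 probe), beside 5.09% of all probes; BAK1 and MCL1 have 1 spot each and no spot SD of their own. Of the 20 probes, 4 differed by at least 0.5 between the siRNAs, beside 8.64%.

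**Figure D4:**
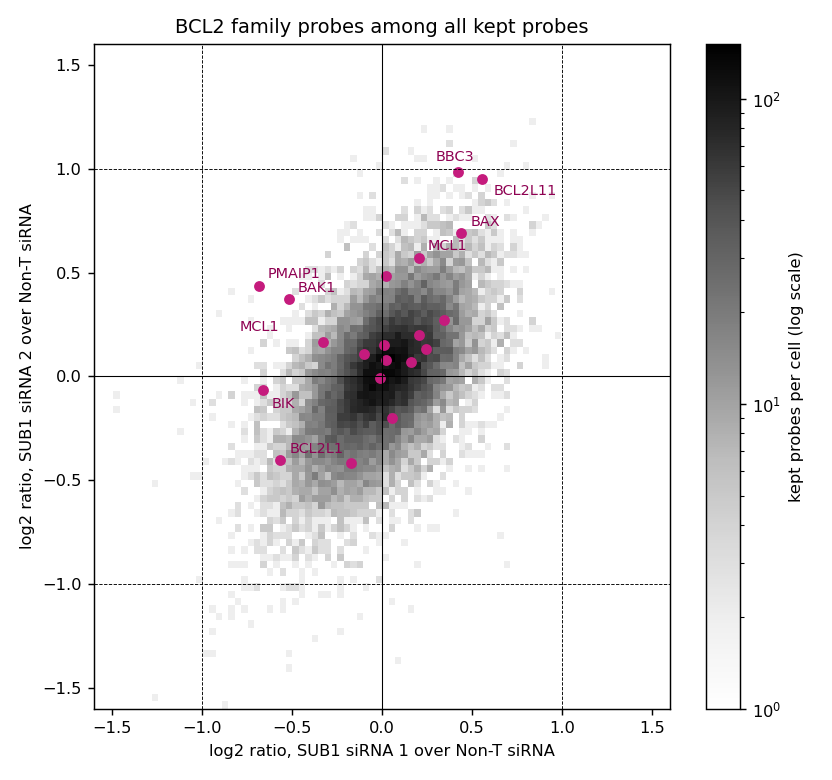
Log2 ratio over Non-T siRNA with SUB1 siRNA 1 (x axis) and with SUB1 siRNA 2 (y axis) for the 20 kept member probes (magenta) over the density of all 25673 kept probes (grey, log scale), with dashed lines at a 2-fold change. PMAIP1 and BAK1 lie in the upper left, outside the main cloud, and the 3′-most probes of BBC3, BCL2L11 and BAX lie in the upper right, all inside the 2-fold lines. Both axes share the control and, if it was the same RNA, its error.

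In 5 of the 6 member genes with at least 2 kept probes the 3′-most probe had the largest absolute mean ratio (BCL2L1, MCL1, BAX, BBC3 and BCL2L11, with BID as the exception), whereas this held for 52.7% of the 4022 genes with at least 2 kept probes. This order was looked at after the values were seen. In BCL2L1 and BCL2L11 the other kept probes were near background, and the part of low signal and of the background offset in the order was not tested. The upstream BAX probes had signals of 2190 to 2432 and 171 to 202, and the upstream BBC3 probes 66621 to 81452 and 119 to 134. What the bright BBC3 probe detects was not tested. Its log2 ratio with siRNA 1 ran from 0.035 to 0.70 over the alternatives. The RNA had been primed with oligo-dT, and its part in the order was not tested.

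**Figure D5:**
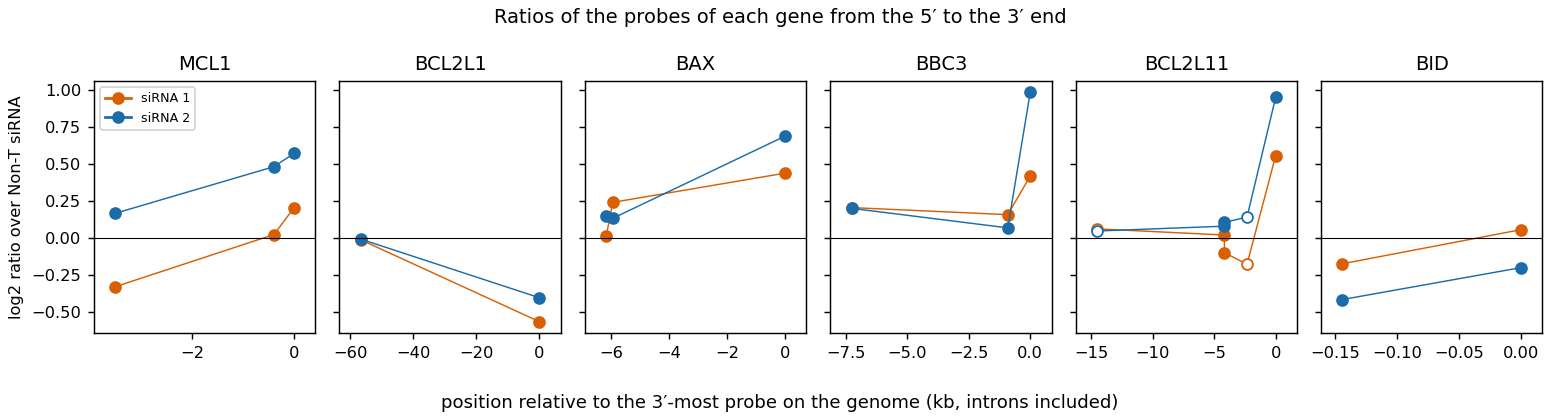
Log2 ratio over the control (y axis) of the probes of the 6 member genes with at least 2 kept probes, against their position relative to the 3′-most probe of the gene on the genome (x axis, kb, introns included), with siRNA 1 in orange and siRNA 2 in blue and open circles for probes that were not kept. The mean of both siRNAs is furthest from 0 at position 0 in each gene except BID.

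The promoters of BAX, BBC3 and BCL2L11 are shown because their 3′-most probes had the highest ratios with siRNA 2. Each is the RefSeq window of GRCh38.p14 from 250 bases before to 50 bases after the annotated start, 5′ to 3′ on the strand of the gene: chr19:48954625-48954924 (plus) for BAX, chr19:47232618-47232917 (minus) for BBC3 and chr2:111120664-111120963 (plus) for BCL2L11. Capitals mark the E-box CACGTG, the FOXO site GTAAACA and the interferon-stimulated response element core GAAANNGAA, searched on both strands.
BAX: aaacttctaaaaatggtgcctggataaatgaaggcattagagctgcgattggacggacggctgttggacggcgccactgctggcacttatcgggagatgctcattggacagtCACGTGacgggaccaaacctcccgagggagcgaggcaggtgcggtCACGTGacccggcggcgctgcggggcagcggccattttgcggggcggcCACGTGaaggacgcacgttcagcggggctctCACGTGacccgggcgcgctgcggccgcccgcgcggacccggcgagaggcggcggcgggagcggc
BBC3: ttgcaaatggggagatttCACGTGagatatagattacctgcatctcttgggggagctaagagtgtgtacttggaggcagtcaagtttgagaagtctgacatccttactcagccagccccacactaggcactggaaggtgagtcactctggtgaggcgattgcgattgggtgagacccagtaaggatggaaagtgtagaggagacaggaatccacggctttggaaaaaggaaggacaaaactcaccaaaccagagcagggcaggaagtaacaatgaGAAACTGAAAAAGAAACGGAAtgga
BCL2L11: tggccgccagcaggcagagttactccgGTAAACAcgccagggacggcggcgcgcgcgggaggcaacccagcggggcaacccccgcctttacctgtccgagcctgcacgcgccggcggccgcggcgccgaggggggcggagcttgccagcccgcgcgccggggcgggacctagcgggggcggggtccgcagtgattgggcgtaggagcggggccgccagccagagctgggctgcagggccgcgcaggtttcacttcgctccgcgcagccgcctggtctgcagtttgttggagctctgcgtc

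The BAX window held the palindromic E-box 4 times, the BBC3 window once, and the BID window, not shown, once. An E-box was present in 7.26% of all 35116 promoters in the table, a FOXO site, present once for BCL2L11, in 3.42%, and the interferon-stimulated response element core in 8.11%. The latter occurred 3 times in overlap between 26 and 46 bases into the BBC3 transcript. The letters of an E2F site (TTTNGCGC) and a cAMP response element (TGACGTCA) were in none of the 8 member windows that the table holds (all but MCL1 and BIK), and in 1.79% and 1.85% of all promoters. A GC box (GGGCGG) was in 6 of the 8, not marked above, and in 45% of all. The windows of PMAIP1 and BAK1, the genes with opposite ratios, held no match other than the GC box. These matches describe letters and are not evidence of binding.

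The wider pathway was described with 7 lists of 59 further genes, of which 53 had a kept probe (78 probes). By limma, 0 of 78 probes passed the adjusted p of 0.05, and 18 of 78 had an unadjusted p under 0.05, a share near the 21.2% of all probes. At 2-fold, 1 of 78 was higher (beside 0.191% of all probes) and 1 lower (0.557%) with siRNA 1, and 2 were higher (0.526%) and 2 lower (0.923%) with siRNA 2. The median ratio of the 78 probes was 0.049 with either siRNA. Among other BCL2 relatives, the BH3-only BMF had 217 and 527 with siRNA 1 and 279 and 469 with siRNA 2, log2 ratios of 1.28 and 0.75 (adjusted p = 0.105). One probe of the pro-survival BCL2A1 had 314 and 177 with siRNA 1 and 295 and 144 with siRNA 2, log2 ratios of -0.82 and -1.04 (adjusted p = 0.104), while its other probe had -0.51 and -0.023. BCL2L12 had -0.081 and -0.71, and the probe of BCL2L13, an outer membrane protein, with the largest mean ratio had 0.23 and 0.62, its other 2 probes having -0.038 to 0.21.

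Downstream of the pore, the effector caspase gene CASP6 had log2 ratios of -1.38 and -0.58, and CASP9, the initiator on the apoptosome, 0.42 and 0.53 at one probe and 0.11 and 0.13 at the other. The inhibitor of apoptosis BIRC5 (survivin), which also acts in mitosis, had 12532 and 6321 with siRNA 1 and 12102 and 5070 with siRNA 2, log2 ratios of -0.99 and -1.26 (adjusted p = 0.104), and BIRC3 had 0.53 and 0.26. FBXW7, a ubiquitin ligase subunit for MCL1, had 0.60 and 0.61 at one probe and 0.12 and 0.23 at another near background, while VDAC3 had -0.074 and -0.42 at one and 0.034 and -0.32 at the other. In the death receptor pathway, the ligand TNFSF10 (TRAIL) had 245 and 315 with siRNA 1 and 231 and 684 with siRNA 2, log2 ratios of 0.36 and 1.57, and its receptor TNFRSF10B had 0.29 and 0.20 at one probe and 0.018 and -0.011 at the other. Of the transcription factors, DDIT3 had 0.17 and 1.10. TNFSF10 and DDIT3 thus passed 2-fold, on the higher side, with siRNA 2 and not with siRNA 1. The same held on the lower side for BIRC5 and for the BCL2A1 probe with -0.82 and -1.04. BMF and CASP6 passed 2-fold with siRNA 1 and not with siRNA 2. The differences between the duplexes were not tested.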

How the data were processed

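Labelled RNA of SUB1 siRNA-treated (Cy5) and Non-T siRNA-treated (Cy3) PC3 cells was hybridized to 2 arrays. The authors deposited Feature Extraction 9.5.1.1 output with the intensity and local background of each spot, and a table of their log2 ratios after loess with the R package agilp, which served as an alternative. The log10 ratios and p-values of the software were not used.

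Mean spot intensities were corrected by normexp (offset 50), and ratios by loess with a span of 0.3 (limma 3.58.1, R 4.3.3). Outlier spots were dropped and spots of a probe averaged. A probe was kept if, on both arrays, 0.5 or more of its spots passed the scanner's well-above-background flag in Cy3 or Cy5. Signals between arrays were scaled with Aquantile. The 2-fold rule follows the study's methods. The mean of both arrays was tested with lmFit, eBayes and Benjamini-Hochberg adjustment over all kept probes, and the fit was tested on simulated data. Precision is limited by the number of arrays.

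All member probes were named, and per pathway list those 2-fold changed and the 2 genes with the largest mean ratio; some genes of the lists are not reported here. Members and lists were chosen with earlier results of these data known. Gene names and probe coordinates are those of the array files, whose header names hg18; promoters are from RefSeq GRCh38.p14, and no coordinate was converted. The 13 alternatives to background correction, normalization, filter, probe choice and test are covered in the closing section, with a 1.5-fold threshold added later.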

Additional observations from a re-analysis of the deposited data

Results flagged for a closer look

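Ratios of opposite sign with the 2 siRNA duplexes, each further from 0 than 2 median SDs among spots, were found for 3 member probes. The difference between siRNA 2 and siRNA 1 on the log2 scale was 1.12 for PMAIP1 (-0.69 and 0.44), 0.889 for BAK1 (-0.52 and 0.37) and 0.496 for the long-form MCL1 probe (-0.33 and 0.17). BAK1 and MCL1 have 1 spot each, so that SD is not their own. In the authors' table the MCL1 ratio with siRNA 2 was 0.12, which no longer passes. With 1 array per duplex the difference itself was not tested. Under the alternatives run for each probe the difference kept its direction, from 1.11 to 1.21 for PMAIP1, from 0.869 to 0.973 for BAK1 and from 0.447 to 0.801 for MCL1.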

How the results depend on the processing

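No paired analysis was possible because the ratios already pair knockdown with control within an array, and with 1 array per duplex no replicate number remains to block on or to leave out. No member probe passed limma's adjusted p of 0.05 in any of the 13 alternatives, and the lowest adjusted p was 0.0511 (BCL2L11, no filter on dim probes, where 577 of 40999 probes passed, against 3 of 25673 with the filter). With median centring in place of loess, the median of the members was 0.20 (siRNA 1) and 0.34 (siRNA 2), that of all probes 0.11 and 0.10, and 2 member probes (BBC3 and BCL2L11) were 2-fold higher with siRNA 2. With the Feature Extraction processed signals the siRNA 2 median was 0.30 and the same 2 probes were 2-fold higher. One value per gene gave medians of -0.081 and 0.24 (brightest probe) and, with siRNA 2, 0.35 (mean over probes). At 1.5-fold, 2 probes were lower with siRNA 1 and 3 higher with siRNA 2. The cause was not tested for any of these. Over all probes, the split of 2-fold calls also turned with the scaling: 49 higher and 143 lower with siRNA 1 and 135 and 237 with siRNA 2 became 169 and 71, and 310 and 115, under median centring, and 1020 and 386, and 1307 and 642, with the processed signals. Of the values of single member probes, 31 of 60 moved by more than the spread between spots under median centring, 24 of 60 with the processed signals and at most 7 of 60 under any other background correction or the authors' table. Ratios of member probes near background in Cy3 are limited by signal.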
